A study of Homo sapiens with 3 samples.

Results

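The genes described here make and process ribosomal RNA. The list holds 60 genes, chosen by name for their role: 5 subunits of RNA polymerase I (Pol I), 7 of its initiation and termination factors, and proteins of snoRNPs, of the small-subunit (SSU) processome and of later 40S and 60S assembly. Of the 60, 59 were found by symbol among the 22827 genes of the deposited table and 58 had reads. The cells carry the label Hep3B, the name of a liver cancer line, and gave 3 RNA libraries: one labelled SIRT7-KO (knockout of the deacylase gene SIRT7), one labelled USP39-KO (knockout of the splicing gene USP39) and one labelled control. The labels name no clone, guide or growth condition. With 1 library per group no test was possible and no p-value is given, so each ratio compares 2 libraries and not the conditions.

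Ribosomal RNA is transcribed in the nucleolus by Pol I as one long precursor. The factor UBTF and the complex SL1 (TAF1A, TAF1B, TAF1C and TAF1D with the TATA-binding protein) mark the promoter, RRN3 brings the polymerase to it, and TTF1 acts in termination. The precursor is folded and cut inside the SSU processome, guided by snoRNPs that also modify it, and the 2 subunits then mature separately. SIRT7 binds near ribosomal DNA and deacetylates several nucleolar proteins, among them the Pol I subunit POLR1E and the U3 snoRNP protein RRP9, so these genes are of interest in a SIRT7 knockout. Messenger RNA levels show neither the rate of Pol I transcription nor the acetylation of any protein.

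Promoter sequences are shown for the 4 genes on which the results below turn most: UTP4 and NIP7, the members farthest below control in SIRT7-KO, POLR1C, the lowest of the Pol I subunits, and TAF1A, the highest member. Each is the 250 bases before the RefSeq gene start in GRCh38.p14, 5′ to 3′ on the gene's strand. The windows are chr16:69132399-69132648 (plus), chr16:69339522-69339771 (plus), chr6:43516839-43517088 (plus) and chr1:222589934-222590183 (minus). Capitals mark every match on either strand to the E-box CACGTG (bound by MYC and related factors), the ETS core CCGGAAG, the YY1 core AAGATGGCG and the box CCAAT.
UTP4: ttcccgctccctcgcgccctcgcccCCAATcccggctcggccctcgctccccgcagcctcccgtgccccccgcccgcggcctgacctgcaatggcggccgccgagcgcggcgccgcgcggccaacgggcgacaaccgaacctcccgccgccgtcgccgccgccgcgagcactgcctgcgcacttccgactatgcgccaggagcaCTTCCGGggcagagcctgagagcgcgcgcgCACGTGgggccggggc
NIP7: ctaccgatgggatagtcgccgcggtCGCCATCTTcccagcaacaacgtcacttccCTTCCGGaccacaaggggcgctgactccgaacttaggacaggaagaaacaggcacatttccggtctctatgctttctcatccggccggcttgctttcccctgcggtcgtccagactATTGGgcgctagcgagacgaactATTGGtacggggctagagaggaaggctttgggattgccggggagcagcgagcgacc
POLR1C: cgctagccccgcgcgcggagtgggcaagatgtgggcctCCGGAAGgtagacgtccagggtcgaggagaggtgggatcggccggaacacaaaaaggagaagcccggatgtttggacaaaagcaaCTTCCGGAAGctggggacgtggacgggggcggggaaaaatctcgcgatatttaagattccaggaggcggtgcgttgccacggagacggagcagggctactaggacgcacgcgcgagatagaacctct
TAF1A: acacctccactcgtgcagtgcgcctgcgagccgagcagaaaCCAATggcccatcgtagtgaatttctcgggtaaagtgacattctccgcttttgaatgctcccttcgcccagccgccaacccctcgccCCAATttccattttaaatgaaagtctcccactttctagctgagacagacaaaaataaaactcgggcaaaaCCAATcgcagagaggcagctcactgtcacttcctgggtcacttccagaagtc
UTP4 carried an E-box 16 bases before its start, which the other 3 windows did not hold. POLR1C carried 3 ETS matches, of which the one on the plus strand 124 bases before the start and the one on the minus strand 127 bases before it overlap. TAF1A had 3 CCAAT boxes and none of the other motifs in these bases. A match is a description of the letters, not of binding.

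Over the whole RefSeq window of 250 bases before to 50 after the start, 53 of the 60 members had a promoter. An E-box was present in 15 of 53 (28.3%), against 7.43% of all 27305 promoters and 10.5% of the 8276 promoters of genes with at least 100 reads. The ETS core was present in 25 of 53 (47.2%), against 10.7% of all promoters and 20.7% of those of genes with at least 100 reads. The YY1 core was in 3 of 53 (5.66%), 1.85% of all and 4.48% of those of genes with at least 100 reads. For the other 3 motifs the shares were 66.0% of member promoters and 72.4% of such genes for the GC box GGGCGG (44.6% of all), 41.5% and 36.9% for CCAAT (35.7% of all), and 3.77% and 4.94% for the TATA box TATAAA (12.0% of all). The 15 measured members with an E-box had a median log2 ratio of -0.11 in SIRT7-KO against control, and the 37 without one had -0.12. In USP39-KO against control the medians were 0.03 with and 0.04 without it, and in SIRT7-KO against USP39-KO -0.20 with and -0.11 without. For the ETS core the medians of the 25 members with and the 27 without it were -0.10 and -0.16 in SIRT7-KO against control, 0.05 and 0.02 in USP39-KO against control, and -0.01 and -0.20 in SIRT7-KO against USP39-KO. MYC itself had 7894 reads in SIRT7-KO, 8364 in USP39-KO and 11109 in the control, with log2 ratios against control of -0.24 in SIRT7-KO (interval -0.28 to -0.20) and -0.17 in USP39-KO.

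The libraries held 16151522 (SIRT7-KO), 16630636 (USP39-KO) and 19427940 (control) reads. Levels are given as CPM, read counts scaled to library size after TMM normalization against the bulk of genes, or, to compare genes with each other, as FPKM, which also divides by the listed gene length. Intervals are exact 95% intervals for the ratio of 2 counts and cover counting error only. SIRT7 had 608, 808 and 984 reads in SIRT7-KO, USP39-KO and the control, and was at 73.6% of control in SIRT7-KO. USP39 had 1511, 1066 and 1829 reads, and was at 68.8% of control in USP39-KO. Each target was thus lowest in its own library and still present. The cell label was checked against listed markers: of 12 hepatocyte or liver-tumour markers, 7 (ALB, AFP, TTR, APOB, APOA2, GPC3 and FOXA2) were listed at 0 in all libraries. The 12 summed to 1719 CPM in SIRT7-KO, 1587 in USP39-KO and 2073 in the control, most of it from the keratin KRT8 with 26167, 24379 and 37684 reads. HNF4A had 7 reads in SIRT7-KO, 29 in USP39-KO and 113 in the control. KRT18 had 114, 103 and 127 CPM in SIRT7-KO, USP39-KO and the control, and APOA1 at most 2 reads in any library. The 2 keratins are also made by other epithelial cells, and a 0 in this table does not show that a gene was silent, since the ribosomal protein genes RPL7A and RPS18 are listed at 0 too. The liver identity of the cells could therefore not be read from these markers. In SIRT7-KO, USP39-KO and the control, 4 endothelial markers summed to 0.735, 0.668 and 0.618 CPM with none at 10 reads, 4 blood markers to 4.78, 3.77 and 3.81 CPM, and 6 fibroblast markers to 114, 139 and 118 CPM. The part of cell identity in the results below was not tested.

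Together the 59 genes took 0.875% of all reads in SIRT7-KO, 0.902% in USP39-KO and 0.915% in the control. In FPKM of the control the most abundant were NPM1 (nucleophosmin, 569.2), the RNA helicase DDX21 (185.5), NCL (nucleolin, 161.5) and FBL (fibrillarin, the snoRNP methyltransferase, 84.9). The least abundant were the SL1 subunit TAF1B (2.56) and BOP1 of the 60S pathway (3.20). The median of the members with reads was 15.2 FPKM in SIRT7-KO, 16.7 in USP39-KO and 16.6 in the control. DKC1, the pseudouridine synthase of box H/ACA snoRNPs, was listed at 0 in all 3 libraries. As for the markers above, that 0 does not show that the gene was silent. DDX52 was not analysed here.

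In SIRT7-KO most of these genes were slightly below control, and a few were above. In bulk RNA, fewer cells with a transcript and less of it per cell cannot be told apart. Of 58 measured members 42 (72.4%) had a log2 ratio below 0, against 51.2% of all 12726 genes with at least 10 reads in some library. The members' median was -0.15, against -0.01 over all genes kept. The interval lay below 0 for 34 members (58.6%), against 28.8% of all genes kept and 32.0% of the 10181 genes with at least 100 reads in some library, as all 58 members had. It lay above 0 for 6 members (10.3%, against 27.3% of genes kept and 30.4% of those with at least 100 reads). The differences were small: 50 of 58 members lay within 1.3-fold of control. With a size rule of at least 1.3-fold and an interval excluding 0, 5 members were lower (8.62%, against 12.7% of all genes kept and 11.9% of those with at least 100 reads) and 3 higher (5.17%, against 12.7% and 12.1%). The share past the size rule was therefore not above the background, while the share leaning low was. None was at least 2-fold higher (3.02% of genes kept, 1.34% with at least 100 reads) or lower (4.05% and 2.06%).

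**Figure D1:**
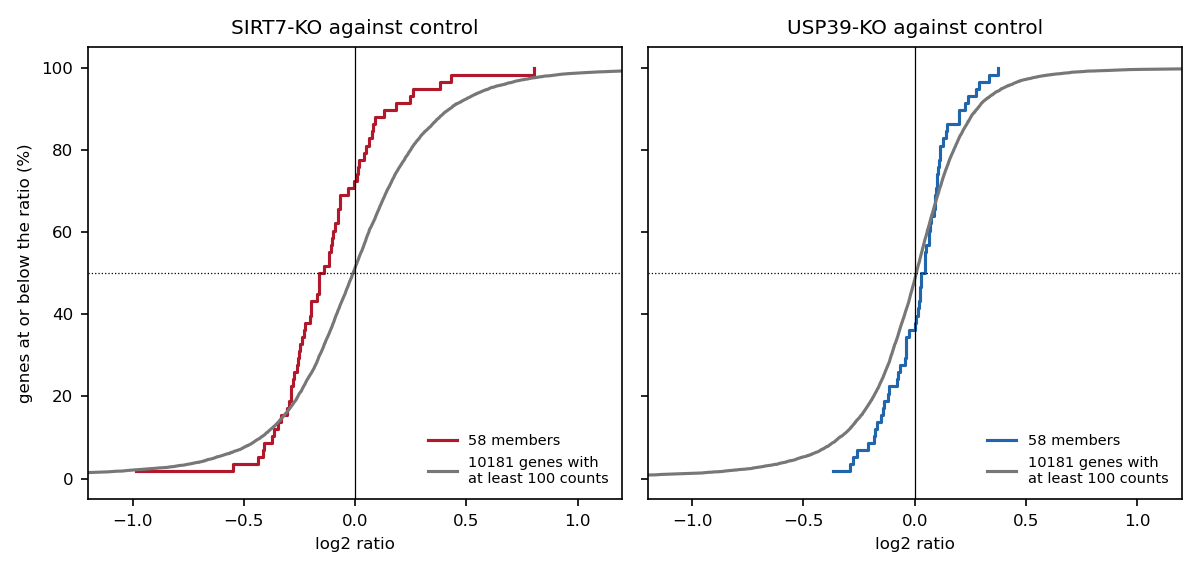
Cumulative share of genes (vertical axis, %) by log2 ratio (horizontal axis) for the 58 measured members (coloured steps) and for the 10181 genes with at least 100 counts (grey), with SIRT7-KO against control on the left and USP39-KO against control on the right. In SIRT7-KO the members' curve lies to the left of the grey one over most of its height (median -0.15), while in USP39-KO it crosses above the middle and is steeper (median 0.04).

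In USP39-KO the same genes stayed closer to control. All 58 members lay within 1.3-fold, so none was lower by the size rule (9.75% of genes kept, 8.0% with at least 100 reads) or higher (6.13% and 5.5%). None was 2-fold lower (3.37% of genes kept) or higher (1.49%). Their log2 ratios ran from -0.37 for WDR3 to 0.37 for UTP18, with a median of 0.04 and 37 of 58 above 0 (63.8%, against 49.6% of all genes kept). The interval lay above 0 for 14 members (24.1%, against 22.0% of genes kept and 25.3% with at least 100 reads) and below 0 for 11 (19.0%, against 22.5% and 23.9%). The 2 knockouts share the control library. Set directly against each other, SIRT7-KO over USP39-KO, the members' median was -0.18 and 41 of 58 lay below 0 (70.7%, against 50.4% of genes kept). The interval lay below 0 for 33 (56.9%, against 29.8% of genes kept and 34.1% with at least 100 reads). It lay above 0 for 10 (17.2%, against 29.2% of genes kept and 31.7% with at least 100 reads). By the 1.3-fold rule 6 members were lower (14.3% of genes kept, 14.7% with at least 100 reads) and 3 higher (16.3% and 15.5%). UTP4 was the 1 member at least 2-fold lower in SIRT7-KO than in USP39-KO (3.51% and 2.17%), and none was 2-fold higher (5.03% of genes kept).

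**Figure D2:**
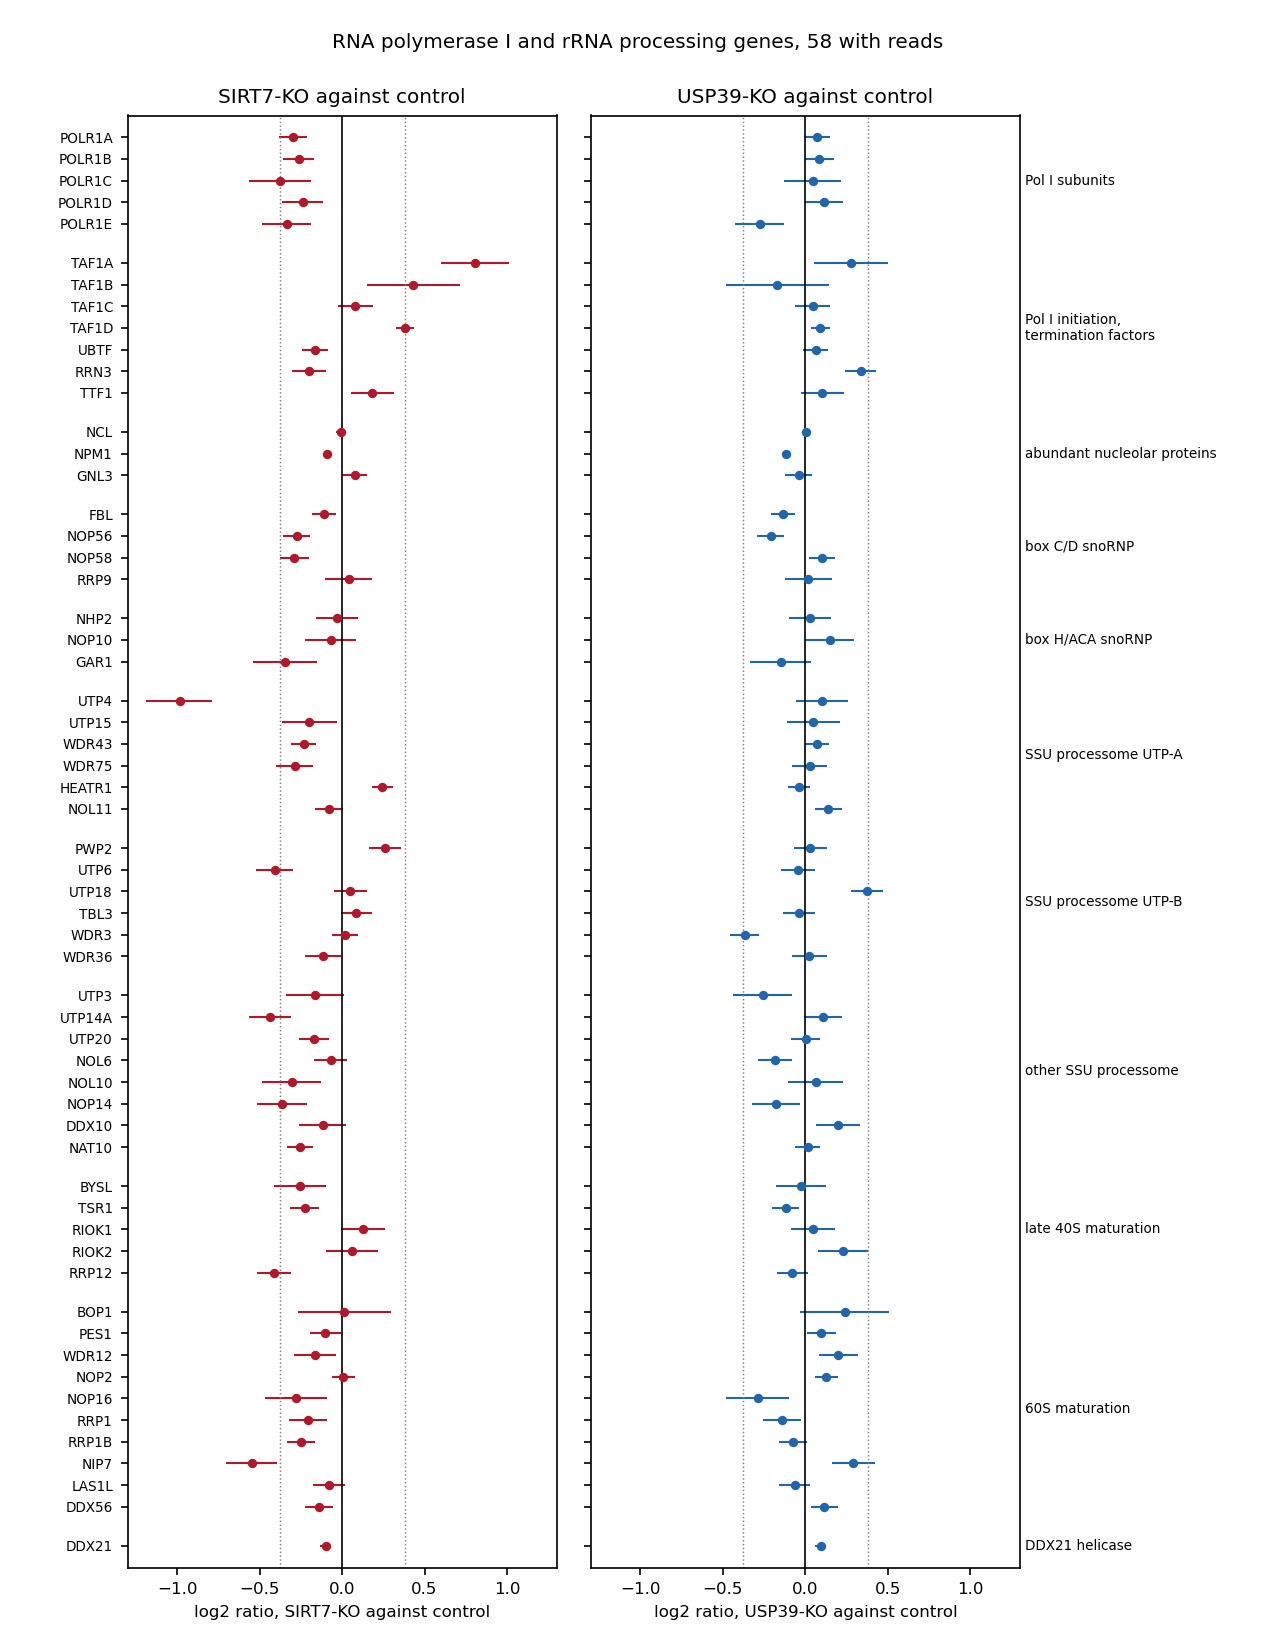
Log2 ratio against control (horizontal axis) for each of the 58 measured members, grouped by role, in SIRT7-KO (left, red) and USP39-KO (right, blue). Bars are exact 95% counting intervals and dotted lines mark 1.3-fold. In SIRT7-KO the 5 Pol I subunits lie between -0.37 and -0.24, UTP4 lies farthest left (-0.98) and TAF1A farthest right (0.80), and in USP39-KO all points lie between the dotted lines.

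All 5 Pol I subunits of the list were below control in SIRT7-KO, as were 42 of all 58 members and 51.2% of genes kept. POLR1A, the largest subunit, which forms the catalytic centre with POLR1B, had 116 CPM in SIRT7-KO, 150 in USP39-KO and 143 in the control. POLR1B had 92.4, 118 and 111 CPM in the same order. POLR1C and POLR1D, which Pol I shares with Pol III, had 23.2 and 55.9 CPM in SIRT7-KO, 31.0 and 71.5 in USP39-KO, and 30.1 and 66.0 in the control. For these 4 genes SIRT7-KO was the low library and USP39-KO lay at or slightly above control. POLR1E (PAF53), the subunit deacetylated by SIRT7, had 37.9 CPM in SIRT7-KO, 39.4 in USP39-KO and 47.8 in the control, so it was below control in both knockouts. All 5 intervals in SIRT7-KO against control lay below 0, against 34 of all 58 members and 28.8% of genes kept. The 5 log2 ratios ran from -0.37 (POLR1C, -0.56 to -0.19) to -0.24 (POLR1D, -0.36 to -0.12). None of the 5 passed the 1.3-fold rule against control with TMM factors, while POLR1C just did with upper-quartile factors (-0.38). POLR1C also passed it against USP39-KO (-0.42, -0.61 to -0.22). Summed over the 5 genes, SIRT7-KO had 325.7 CPM (81.9% of control), USP39-KO 409.7 CPM (103.0%) and the control 397.7 CPM.

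Other subunits did not all lie on the same side. Of 7 further measured Pol I or shared subunits, 4 were below 0 in SIRT7-KO against control (51.2% of genes kept were) and 3 above. Their median was -0.06. The interval lay below 0 for 2 and above 0 for 2, against 28.8% and 27.3% of genes kept. POLR1G, a Pol I subunit of low abundance, had 126, 118 and 91 reads in SIRT7-KO, USP39-KO and the control, and was higher by the 1.3-fold rule in SIRT7-KO (log2 ratio 0.72, interval 0.32 to 1.13) and in USP39-KO (0.61). POLR1F had 964, 922 and 889 reads, with 0.37 (0.24 to 0.50) in SIRT7-KO. POLR2E, an abundant subunit common to the nuclear RNA polymerases, had -0.06. POLR2L had -0.26 (-0.46 to -0.06) and POLR2H -0.14 (-0.25 to -0.03) in SIRT7-KO. The 10 measured Pol III subunits had a median of -0.03 in SIRT7-KO against control. By the 1.3-fold rule POLR3B (-0.53) and POLR3F (-0.42) were lower there and POLR3G (0.56) was higher. Of all genes kept, 12.7% passed the rule in each direction in SIRT7-KO, and 6.13% upward in USP39-KO.

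All 4 SL1 subunits of the list had log2 ratios above 0 in SIRT7-KO, against 16 of all 58 members and 48.7% of genes kept. Of the 4, 3 passed the 1.3-fold rule, which 12.7% of genes kept and 12.1% of those with at least 100 reads did in that direction. TAF1A had 474 reads (29.04 CPM) in SIRT7-KO, 331 (20.1 CPM) in USP39-KO and 323 (16.6 CPM) in the control. In SIRT7-KO it reached 175% of control (0.80, interval 0.60 to 1.01), the highest of all members, and 121% in USP39-KO (0.27, 0.05 to 0.50). TAF1B had 229, 152 and 202 reads, or 14.0, 9.24 and 10.4 CPM, and was higher by the rule in SIRT7-KO (0.43, 0.15 to 0.71). TAF1D, whose introns also hold snoRNAs, had 368, 300.2 and 282.1 CPM and lay just past the rule in SIRT7-KO (0.38, 0.33 to 0.44). With upper-quartile factors TAF1D was just inside it (0.37). TAF1C had 83.9, 81.9 and 79.4 CPM, with intervals that included 0. Summed, the 4 subunits had 494.7 CPM in SIRT7-KO (127% of control), 411.5 in USP39-KO (106%) and 388.4 in the control. TAF1D makes up most of that sum.

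Of the remaining factors, RRN3, which carries Pol I to the promoter, separated the knockouts. It had 82.3 CPM in SIRT7-KO, 119 in USP39-KO and 94.5 in the control. Its log2 ratio was -0.20 in SIRT7-KO (-0.30 to -0.10) and 0.33 in USP39-KO (0.24 to 0.43), and -0.53 between them (-0.63 to -0.43), past the 1.3-fold rule in the direct comparison. RRN3 has 3 named pseudogenes, as have NIP7 and NOP56, so reads may be split among copies. UBTF had 131, 154 and 147 CPM, with -0.16 (-0.25 to -0.08) in SIRT7-KO. TTF1 had 58.03, 54.8 and 51.1 CPM, with 0.18 (0.05 to 0.31) in SIRT7-KO.

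**Figure D3:**
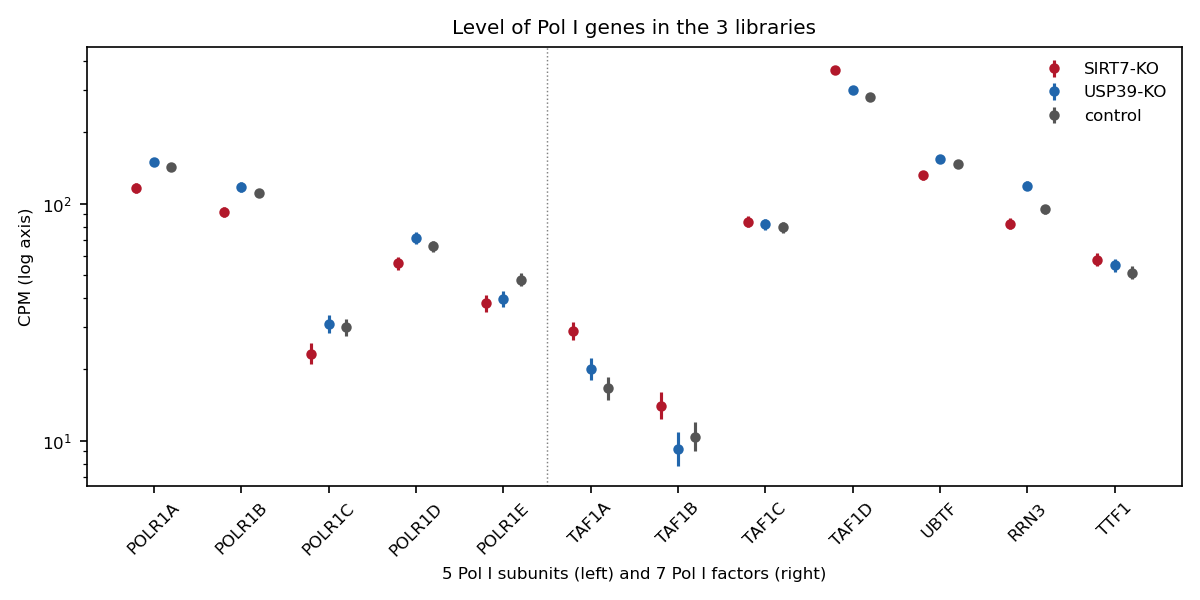
Level in CPM (vertical log axis) of the 5 Pol I subunits and 7 Pol I factors in SIRT7-KO (red), USP39-KO (blue) and control (grey), 1 library each, with exact 95% Poisson intervals of the counts. SIRT7-KO is the lowest library for all 5 subunits and the highest for all 4 SL1 subunits (TAF1A to TAF1D).

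The abundant nucleolar proteins hardly differed. NCL, which binds nascent precursor RNA, had 1114, 1122 and 1119 CPM in SIRT7-KO, USP39-KO and the control. NPM1, a histone and ribosome chaperone, had 2047, 2012 and 2179 CPM, with -0.09 in SIRT7-KO and -0.12 in USP39-KO and intervals that excluded 0. NPM1 has 45 named pseudogenes. GNL3 (nucleostemin) had 153, 141 and 145 CPM. DDX21, a helicase that links Pol I transcription and snoRNAs, had 816, 931 and 874 CPM, a log2 ratio of -0.10 in SIRT7-KO and 0.09 in USP39-KO.

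Among proteins of box C/D snoRNPs, particles that mostly guide methylation of ribosomal RNA, the scaffold pair NOP56 and NOP58 was below control in SIRT7-KO. NOP56 had 122 CPM in SIRT7-KO, 127 in USP39-KO and 147 in the control, and lay below control in both knockouts (-0.28 and -0.21). NOP58 had 114, 149 and 139 CPM, with -0.29 (-0.37 to -0.20) in SIRT7-KO, 0.10 in USP39-KO and -0.39 in the direct comparison, where it passed the 1.3-fold rule. With library totals NOP58 was inside the rule there (-0.36). FBL had 171, 168 and 185 CPM, and RRP9, a SIRT7 substrate, 46.1, 45.4 and 44.9 CPM, with intervals that included 0 in both knockouts. In the box H/ACA group GAR1 had 22.2, 25.4 and 28.2 CPM (-0.35, -0.54 to -0.15 in SIRT7-KO), while NHP2 and NOP10 had intervals including 0 against control in both knockouts. Of the 5 members known as SIRT7 substrates (POLR1E, RRP9, NPM1, FBL and DDX21), 4 had an interval below 0 in SIRT7-KO against control, against 34 of all 58 members and 28.8% of genes kept, and none passed 1.3-fold. POLR1E, NPM1 and FBL had intervals below 0 in USP39-KO against control as well, with log2 ratios of -0.28, -0.12 and -0.14. Of all 58 members 11 (19.0%) had such an interval there, and of genes kept 22.5%.

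The SSU processome held the lowest member. UTP4 (cirhin), a protein of the early-binding UTP-A subcomplex known for an inherited childhood cirrhosis, had 291 reads (17.8 CPM) in SIRT7-KO, 623 (37.9 CPM) in USP39-KO and 686 (35.3 CPM) in the control. Its level in SIRT7-KO was 50.5% of control (-0.98, interval -1.19 to -0.79), and 107% in USP39-KO (0.10, -0.06 to 0.26). The other UTP-A genes UTP15, WDR43 and WDR75 had -0.20, -0.23 and -0.29 in SIRT7-KO with intervals below 0. NOL11, a partner of UTP4, had -0.08 with an interval that included 0. HEATR1 had 248, 204 and 209 CPM and lay above control in SIRT7-KO (0.24, 0.18 to 0.31).

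The genes of UTP-B, another early subcomplex of the processome, were mixed in both knockouts. UTP6 had 63.9, 82.3 and 84.9 CPM and was lower by the rule in SIRT7-KO (-0.41, -0.52 to -0.30). PWP2 had 108, 92.0 and 90.2 CPM (0.26, 0.16 to 0.36 in SIRT7-KO). UTP18 had 91.9, 115 and 88.8 CPM, with 0.37 (0.28 to 0.47) in USP39-KO against control and 0.05 in SIRT7-KO. WDR3 had 140, 107 and 139 CPM, with -0.37 (-0.46 to -0.28) in USP39-KO and 0.02 in SIRT7-KO. These last 2 were the members farthest from control in USP39-KO, one on each side, and both missed the rule by little. UTP18 passed it with DESeq2 size factors and WDR3 with library totals. WDR3 was the 1 UTP-B gene past the rule between the knockouts (0.39, higher in SIRT7-KO). TBL3 and WDR36 had 0.09 and -0.12 in SIRT7-KO.

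All 8 measured members of the rest of the processome had log2 ratios below 0 in SIRT7-KO, against 51.2% of genes kept. The interval lay below 0 for 5 of them, against 34 of all 58 members and 28.8% of genes kept. UTP14A was lower by the rule, with 50.4 CPM in SIRT7-KO, 73.6 in USP39-KO and 68.3 in the control (-0.44, -0.56 to -0.31). NOP14 had -0.36, NOL10 -0.30, the 18S acetyltransferase NAT10 -0.26 and UTP20 -0.17. In USP39-KO this group was spread around 0, from -0.26 (UTP3) to 0.20 (DDX10).

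In SIRT7-KO 3 of 5 genes of late 40S maturation and 8 of 10 of 60S maturation were below control, against 51.2% of genes kept. Their medians were -0.23 and -0.15. In each group 1 gene was lower by the 1.3-fold rule, which 12.7% of genes kept were. RRP12, known from yeast for export of pre-ribosomes, had 80.0 CPM in SIRT7-KO, 101 in USP39-KO and 106 in the control, and was lower by the rule (-0.41, -0.51 to -0.31). The 40S assembly factors BYSL and TSR1 had -0.25 and -0.23, while the kinases RIOK1 and RIOK2 had 0.13 and 0.06 with intervals including 0. NIP7, needed for precursor processing, had 541 reads (33.1 CPM) in SIRT7-KO, 974 (59.2 CPM) in USP39-KO and 941 (48.4 CPM) in the control. It was lower by the rule in SIRT7-KO (-0.55, -0.70 to -0.39), above control in USP39-KO (0.29, 0.16 to 0.42) and at 56.0% of USP39-KO in the direct comparison. Of the PeBoW complex, PES1 had -0.10, WDR12 -0.16 and BOP1 0.01 in SIRT7-KO. The methyltransferase NOP2, the 60S gene highest in FPKM, had 190, 207 and 189 CPM. NOP16 had 24.1, 23.9 and 29.2 CPM and lay below control in both knockouts (-0.28 and -0.29). The paralogues RRP1 and RRP1B had -0.20 and -0.25 in SIRT7-KO, DDX56 had -0.14 and LAS1L -0.08.

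Chromosome position was read beside these values. UTP4 (chromosome 16, 69131291 to 69231130 in GENCODE 29, GRCh38) and NIP7 (69337996 to 69343111) lie 0.207 Mb apart. In SIRT7-KO against control the genes between and beside them had log2 ratios of -0.63 (CHTF8), 0.20 (SNTB2), -0.52 (VPS4A), -0.68 (COG8) and -0.95 (PDF), and farther out -0.26 (TERF2), -0.26 (CYB5B) and -0.17 (TANGO6). Over all 62 neighbours of UTP4 within 2 Mb the median was -0.01. UTP4 overlaps CHTF8 and SNTB2, and NIP7 overlaps COG8, and the sources used here do not say how reads in shared bases were counted. In all, 11 members overlap another gene with at least 100 reads, among them POLR1C, TAF1D and RRN3, so their values are uncertain to that extent. TAF1A (chromosome 1) had 17 neighbours within 2 Mb, of which 14 were above 0 in SIRT7-KO (median 0.30), and HEATR1, also on chromosome 1, had 10, of which 7 were above 0 (median 0.27). WDR3, on chromosome 1 as well, had 14 neighbours, of which 11 were below 0 in USP39-KO (median -0.34, with WDR3 itself at -0.37). Such values were rare: the neighbours' median was at least 0.2 for 4 of 58 members in SIRT7-KO and at most -0.2 for none. In USP39-KO it reached 0.2 for 1 member and -0.2 for 1. The Pol I subunits had neighbour medians from -0.08 to -0.02 in SIRT7-KO. Gene copy number is not measured by these counts, and the part of position in the results was not tested.

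**Figure D4:**
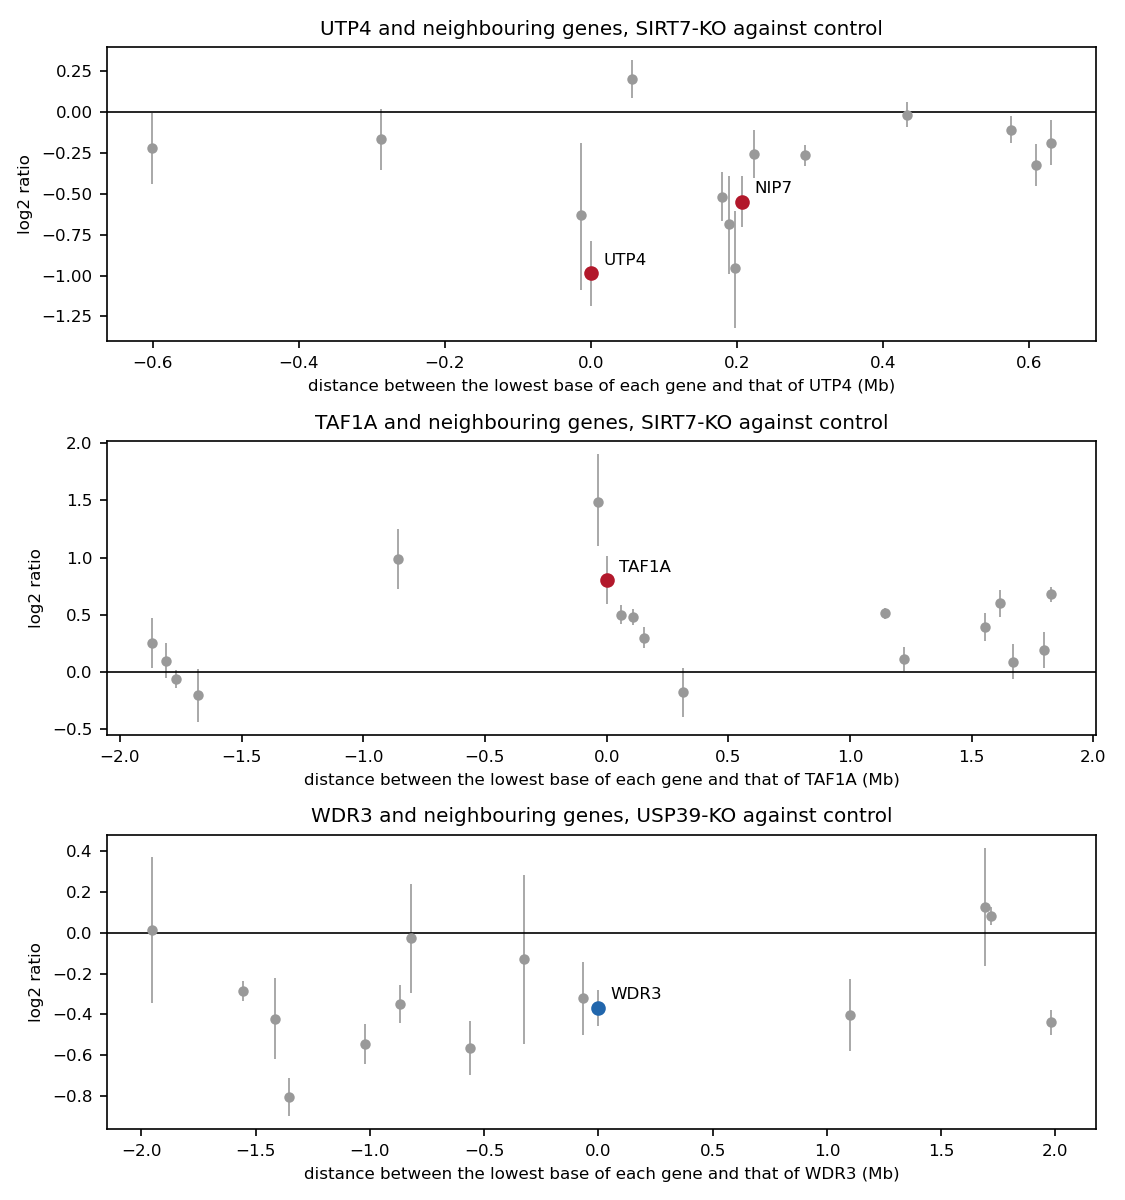
Log2 ratio against control (vertical axis, with exact 95% counting intervals) of genes with at least 100 counts by their distance in Mb (horizontal axis) from UTP4 in SIRT7-KO (top), TAF1A in SIRT7-KO (middle) and WDR3 in USP39-KO (bottom). Coloured points are members. UTP4 (-0.98) and NIP7 (-0.55) lie among low neighbours such as PDF (-0.95), TAF1A (0.80) has mostly positive neighbours, and WDR3 (-0.37) mostly negative ones.

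Other genes of ribosome production, listed by role apart from the members, leaned less in SIRT7-KO against control. Of 101 measured genes (7 other Pol I or shared subunits, 10 Pol III subunits, 29 further 40S factors, 42 further 60S factors and 13 RNA exosome genes), 61 were below 0 in SIRT7-KO against control (51.2% of genes kept were), with a median of -0.06. By the 1.3-fold rule 11 were lower (12.7% of genes kept) and 3 higher (12.7%). The 42 further 60S factors had a median of -0.08 and ran from -0.92 to 0.16. By the rule 6 were lower, among them DDX27 (-0.42), SDAD1 (-0.42), MAK16 (-0.43) and URB1 (-0.40), and none higher. The named genes do not include the lowest of the group. The further 40S factors had a median of 0.00, with 3 lower by the rule, RRP36 (-0.48), NOP9 (-0.41) and the thinly covered NOL7 (-0.53), and RCL1 (0.40) higher. The abundant NOLC1 had 0.11. No exosome gene passed the rule in SIRT7-KO (median -0.03). In USP39-KO against control 2 of the 101 passed the rule upward (6.13% of genes kept did) and none downward (9.75%), with a median of 0.04. The 2 were POLR1G and SURF6, which at 18, 30 and 16 reads in the 3 libraries is thinly covered (1.12). Of the 101, 63 were above 0 in USP39-KO against control (49.6% of genes kept were). In SIRT7-KO against USP39-KO 68 of the 101 were below 0 (50.4% of genes kept were), with a median of -0.09. By the rule 13 were lower there (14.3% of genes kept) and 4 higher (16.3%).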

How the data were processed

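Per the labels' protocols, RNA was taken up in Trizol and libraries were built with an Illumina TruSeq kit, 1 each for SIRT7-KO, USP39-KO and control. The authors deposited 1 table with a gene length, read counts and FPKM per library, per the file headers. The counts are whole numbers per gene, not normalized by the authors. The FPKM deposited by the authors equal the counts divided by the listed length and library total, within a relative tolerance of 0.0001 for all genes with reads. The aligner, counter, build, annotation and strand setting were not given in the sources used here. Every column was mapped to a library.

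Symbols came by Ensembl identifier from a name table and GENCODE 29; 3178 identifiers had none. TMM factors (edgeR 4.0.16, all genes with reads) were 1.0104 (SIRT7-KO), 0.98965 (USP39-KO) and 1.0000 (control). Log2 ratios used a prior of 0.5 counts, and intervals are Clopper-Pearson. The 12726 genes that reached 10 counts in any library were kept. Where 0 reads are listed, the limit is 3 counts, which is 0.184 CPM in SIRT7-KO, 0.182 in USP39-KO and 0.154 in the control. Since reads lack molecular identifiers and may be copies of 1 molecule, intervals and limits cover counting error only. edgeR and DESeq2 tests need replicates and were not run. Only the ratio, interval and calling steps were tested on simulated counts, which were Poisson draws without variation between libraries.

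The members, lists and rules were chosen with earlier results of these data known; neighbour windows of 2 Mb and promoter motifs were chosen after seeing the values. Members past 1.3-fold in any comparison and the most abundant of each role were to be described with their counts or CPM, and further members were named in the same way after their values were seen. Of other pathway genes, those farthest from 0 with at least 100 counts and the most abundant were named; SURF6 and NOL7 were named after their values were seen because they passed the rule. The 12 noncoding snoRNA host genes of the lists were not analysed here, and some listed markers are not reported here. Alternatives were library totals, DESeq2 1.42.0 size factors, upper-quartile factors, other count minimums, a prior of 2, no interval criterion and a 1.5-fold rule.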

Additional observations from a re-analysis of the deposited data

How the results depend on the processing

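The members' median stayed between -0.16 and -0.14 in SIRT7-KO against control, between 0.02 and 0.04 in USP39-KO against control, and between -0.18 and -0.15 in SIRT7-KO against USP39-KO, under library totals, DESeq2 size factors, upper-quartile factors, no count minimum, a count minimum of 100, a prior of 2 counts, and TMM factors from genes with at least 10 counts, the last chosen after seeing the data. Of 1218 member ratios under these settings 1216 stayed within their interval and no ratio past the rule changed sign. With no count minimum or one of 100, no ratio or median could move. All 58 members had at least 100 reads, and the factors stayed the same. Each of these settings gave 174 of the ratios, which therefore say nothing about stability. NCL (0.02) and NPM1 (0.06) in SIRT7-KO against USP39-KO moved with library totals. Dropping the interval from the size rule left every count of members unchanged, so that criterion removed no member. In USP39-KO against control, library totals gave 1 member at least 1.3-fold lower (WDR3) and DESeq2 size factors 1 at least 1.3-fold higher (UTP18), against 0 each. With upper-quartile factors SIRT7-KO against control had 2 members higher (TAF1D no longer passed) and 6 lower (POLR1C passed), against 3 and 5. With library totals SIRT7-KO against USP39-KO had 5 lower (NOP58 no longer passed), against 6. A 1.5-fold rule in place of 1.3-fold left 1 higher and 1 lower in SIRT7-KO against control, and 1 higher and 2 lower in SIRT7-KO against USP39-KO. The share of all genes past 1.5-fold was not computed, so these counts cannot be set against a background. No paired analysis was possible because each group has 1 library, and for the same reason no library could be left out. Depth limits TAF1B and BOP1 most, with 152 to 231 reads per library.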
